A study of Mus musculus with 20 samples.

Results

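The complement components and receptors studied here are 8 genes, C1qa, C1qb, C1qc, C4b, C3, Itgam, Itgb2 and Serping1, chosen by name from the 47729 genes counted in the hippocampus of male C57BL/6 mice. All 8 passed the filter on low counts, as did 16692 of the 47729 genes. The groups were 24-month mice from an enriched environment (24mEE), 24-month mice from standard cages (24mSC), 5-month mice from an enriched environment (5mEE) and 5-month mice from standard cages (5mSC), with 5 libraries each. The labels give no transgene, deletion or drug for any group. The enriched cages held running wheels, tunnels and climbing platforms, and the 24mEE mice entered them in the last months of life, whereas the exposure of the 5mEE mice is not given in the sources used here. The libraries are bulk hippocampal tissue, so fewer cells of a type and less RNA per cell cannot be told apart. The labels do not say that the libraries of a group are separate animals, so p-values measure the spread between these libraries. The comparisons ask which of the 8 genes differed with age in each housing, which differed with the environment at each age, and whether the environment changed the age difference.

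Complement is a cascade of secreted proteins that tags surfaces for removal. In the classical pathway C1q binds a target and its proteases cut C4, while C3 is cut in a later step of the cascade. Cut C3 stays on the surface, where phagocytes bind it through receptors such as the integrin formed by Itgam and Itgb2. In the brain microglia are the main source of C1q and carry this receptor, complement tagging is known from the removal of synapses, and astrocytes as well as microglia can make C4 and C3.

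C4b, C3 and Itgb2 were higher at 24 months, C4b in both housings, while Itgam did not pass the test and no member passed the test for the environment. C4b averaged 111 ± 37.2 CPM in 24mEE and 110.0 ± 26.1 CPM in 24mSC, against 28.1 ± 6.63 CPM in 5mEE and 31.3 ± 6.24 CPM in 5mSC (SD, n = 5 each). CPM are counts scaled to the library total and by TMM, a normalization that offsets differences in library composition. A gene passed when its Benjamini-Hochberg adjusted p in edgeR's quasi-likelihood test, over all 16692 genes, was under 0.05.

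The total counts were 10963348 to 34107138 per library. The library 5mSC replicate 3 stood apart. It was the shallowest, and 26.8% of its counts were mitochondrial ribosomal RNA against 0.883% to 1.82% elsewhere. On the log2 CPM scale its choroid plexus markers averaged 2.98, against 0.389 to 1.96 in the 18 libraries other than 5mSC replicates 1 and 3. Its neuronal markers averaged 8.35 against 9.02 to 9.36 in those 18, and its T and B cell markers summed to 18.5 CPM against 0.298 to 2.21. Across genes its median Pearson r with the other libraries was 0.928, 5mSC replicate 1 was at 0.981, and the lowest r between any of the other 18 libraries was 0.985. Values without both of these libraries are given beside the main results. Over both housings many more of all genes passed in that fit than with all libraries, so calls gained there are not particular to the genes named. All 8 neuronal genes and all 8 genes of hippocampal identity were measured. Those of hippocampal identity averaged 6.23 to 7.31 on the log2 CPM scale across the libraries, the lowest being 5mSC replicate 3.

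The 3 C1q genes, which encode the A, B and C chains of the C1q molecule, lie side by side on the minus strand of chromosome 4 (GRCm38), within 18.7 kb from 136880129 to 136898803. C1qb (ENSMUSG00000036905) spans 136880129 to 136886187, C1qc (ENSMUSG00000036896) 136889804 to 136893065, and C1qa (ENSMUSG00000036887) 136895917 to 136898803. Because the 3 genes moved together from library to library, the promoters of C1qb and C1qc are shown from RefSeq (GRCm38.p6), each with 250 bases before and 50 after the annotated start, 5′ to 3′ on the gene's strand. The RefSeq start of C1qc lies inside the gene span given above, so part of its 250 bases before the start is within that span. Capitals mark AGGAAG or its reverse complement CTTCCT, the core that ETS factors such as PU.1, a master regulator of myeloid cells, are known to bind.
C1qb, chr4:136886151-136886450, minus strand: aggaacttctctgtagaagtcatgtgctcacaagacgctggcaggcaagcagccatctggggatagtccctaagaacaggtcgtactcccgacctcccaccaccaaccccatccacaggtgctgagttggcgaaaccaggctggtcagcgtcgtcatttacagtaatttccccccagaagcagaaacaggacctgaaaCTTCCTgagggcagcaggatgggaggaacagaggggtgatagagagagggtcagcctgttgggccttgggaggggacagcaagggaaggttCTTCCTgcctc
C1qc, chr4:136892865-136893164, minus strand: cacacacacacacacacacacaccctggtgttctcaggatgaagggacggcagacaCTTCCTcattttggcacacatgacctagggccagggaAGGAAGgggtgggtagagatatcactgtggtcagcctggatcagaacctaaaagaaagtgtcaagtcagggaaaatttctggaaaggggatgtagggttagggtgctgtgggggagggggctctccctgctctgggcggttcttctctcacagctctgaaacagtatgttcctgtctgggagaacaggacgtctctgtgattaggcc
Each window holds 2 of these cores, as does the promoter of Itgam, and that of C3 holds 0. Of 32851 promoters of the same length, 35.4% hold at least 1 core, so it is a frequent word. The longer GAGGAAGT, which contains the core and stands in 3.20% of promoters, was in that of C1qc only among the 4 members whose promoter was matched. TTNNGNAA, read as a C/EBP word on both strands and held by 40.7% of promoters, was in those of C1qc, Itgam and C3, with 3 matches in C3, and 1 of the Itgam matches overlaps a core. Of the other words searched on both strands, TTCNNNGAA (8.30% of promoters), the interferon response motif ISRE (3.44%) and CACGTG (7.15%) were in 0 of the 4, TATAAA (13.6%) was in C3 and the NF-kB motif (4.505%) in C1qc. A match is a description of the letters and not a binding site.

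C1qa had a positive age difference that did not pass the test. It lay at 49.5, 49.4, 63.2, 55.1 and 39.7 CPM in 24mEE, at 54.3, 53.2, 56.0, 57.6 and 53.2 CPM in 24mSC, at 45.3, 43.0, 33.98, 41.0 and 40.1 CPM in 5mEE, and at 52.5, 38.8, 25.5, 46.9 and 47.9 CPM in 5mSC. All 24mSC libraries lay above all 5mSC libraries, the nearest by little, while 24mEE replicate 5 lay among the 5mEE libraries. The log2 difference was 0.36 ± 0.140 in 24mSC versus 5mSC (SE, edgeR adjusted p = 0.160) and 0.34 ± 0.140 in 24mEE versus 5mEE (adjusted p = 0.904). Over both housings, 24 against 5 months, it was 0.35 ± 0.0991 (95% interval 0.14 to 0.55, adjusted p = 0.0918).

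C1qb and C1qc had smaller differences, which did not pass either. C1qb averaged 53.0 ± 7.92 CPM in 24mEE, 56.4 ± 5.52 in 24mSC, 45.1 ± 2.95 in 5mEE and 46.2 ± 7.90 in 5mSC (SD, n = 5 each), with a log2 difference over both housings of 0.26 ± 0.0800 (SE, edgeR adjusted p = 0.125). C1qc averaged 49.0 ± 5.01 CPM in 24mEE, 51.9 ± 3.88 in 24mSC, 41.2 ± 2.67 in 5mEE and 41.9 ± 9.49 in 5mSC, with 0.27 ± 0.0838 (adjusted p = 0.117). The ages overlapped for both genes in each housing. The library 5mSC replicate 3 was the lowest of all 20 for C1qa, C1qb and C1qc, at 25.5, 33.3 and 27.2 CPM. Without 5mSC replicates 1 and 3 the log2 differences over both housings were slightly smaller, and C1qa (0.31, adjusted p = 0.0176) and C1qc (0.24, adjusted p = 0.0201) passed, while C1qb (0.22, adjusted p = 0.0572) did not. In that fit many more of all genes passed as well. Leaving out 5mSC replicate 3 alone gave 0.28 (adjusted p = 0.0297) for C1qa and 0.21 (adjusted p = 0.0398) for C1qc. With all libraries, C1qa also passed by the DESeq2 Wald test (adjusted p = 0.0338), and limma-voom called C1qa, C1qb and C1qc (adjusted p = 0.0100, 0.0397 and 0.0101).

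The 3 chains kept a similar proportion across libraries. In the 20 libraries C1qb stood at 0.940 to 1.31 CPM per CPM of C1qa, and C1qc at 0.871 to 1.10. The C1qb ratio averaged 1.03 ± 0.055 at 24 months and 1.11 ± 0.084 at 5 months (SD, n = 10 each). Without 5mSC replicates 1 and 3 it was 1.10 ± 0.045 at 5 months (n = 8). The C1qc ratio averaged 0.954 ± 0.058 at 24 months and 1.01 ± 0.047 at 5 months. The age difference of these ratios was not tested. Over the 18 libraries other than 5mSC replicates 1 and 3, after the group means were subtracted, the log2 CPM of C1qa and C1qb had a Pearson r of 0.903, C1qa and C1qc of 0.887, and C1qb and C1qc of 0.906. The genes outside the 8 whose pattern was most like the mean of the 3, among 13120 genes compared, were Cyba (r = 0.927), a subunit of the phagocyte NADPH oxidase, Ubl4a (0.897), 2010320M18Rik (0.896), Olfml3 (0.852), which is enriched in microglia, and Tyrobp (0.852), a signalling adaptor of microglial receptors. The median r over those genes was 0.005 and the 99th percentile 0.684. These r share their libraries and depth and are descriptions.

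Homeostatic microglia markers varied with C1q. All 14 genes of that list were measured, and their summed level was 441 to 530.0 CPM in 24mEE, 487 to 574 in 24mSC, 441 to 504 in 5mEE and 331 to 494.5 in 5mSC. Over both housings 3 of 14 were higher, Cx3cr1 (log2 0.36), P2ry13 (0.40) and Sall1 (0.29), and 1 lower, Fcrls (−0.71), with a list median of 0.17. Of all genes tested 1.19% passed there, with a median of −0.006. The mean log2 CPM of the 14 markers, as deviation from the group, had an r of 0.810 with that of the C1q genes over the 18 libraries. The C1q mean exceeded the microglia mean by 1.15 ± 0.070 log2 units in 24mEE, 1.17 ± 0.118 in 24mSC, 0.96 ± 0.059 in 5mEE and 0.97 ± 0.272 in 5mSC (SD, n = 5 each), the last being 0.97 ± 0.088 without replicates 1 and 3 (n = 3). With the microglia mean as a covariate the log2 difference of C1qa over both housings was 0.22 (adjusted p = 0.253), against 0.35 without it, and that of C1qb 0.13 (adjusted p = 0.377).

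**Figure D1:**
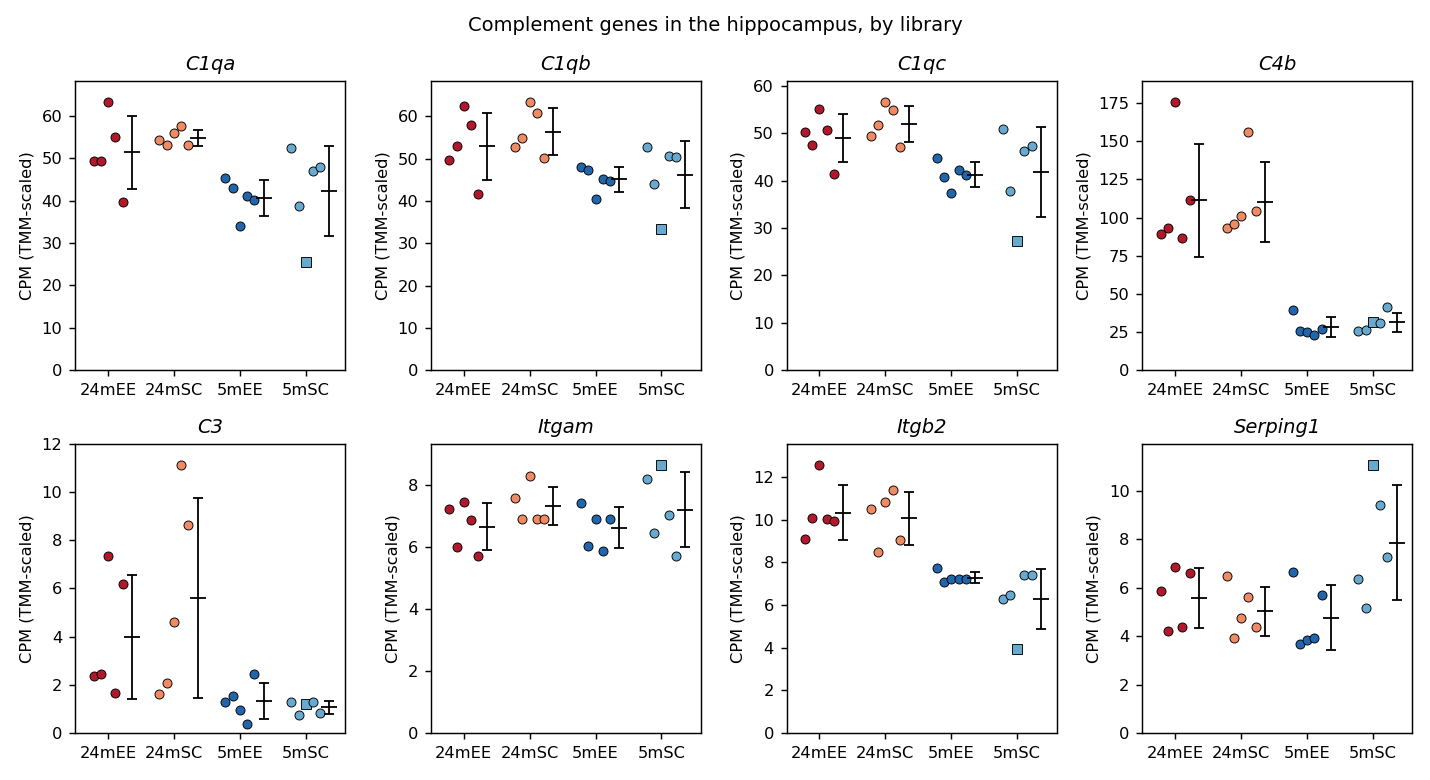
Level of each of the 8 complement genes in TMM-scaled CPM (vertical axes from 0) in the 24mEE, 24mSC, 5mEE and 5mSC groups. Each point is 1 library, the square is 5mSC replicate 3, and the dash with bars beside each group is the mean ± SD of 5 libraries. The 10 libraries of 24 months lie above all 10 of 5 months for C4b (86.7 to 175 against 23.1 to 41.4 CPM) and Itgb2 (8.47 to 12.55 against 3.94 to 7.73 CPM).

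C4 is the protein that C1's proteases cut first, and mice have the copies C4b and C4a in a tandem array. C4b (ENSMUSG00000073418) lies on the minus strand of chromosome 17, 34728380 to 34743882, and 34.6% of the 50-base words of its exons also occur in C4a. Reads are shorter than the longest stretch the coding sequence has in common with C4a, 433 bases. The pair of windows below, centred on base 313 of the C4b coding sequence (GENCODE M21), shows how the copies can be told apart. The capital marks the base at position 26 of the window, counted from 1 at its 5′ end, where C4b and C4a differ (C26T), and 19 windows of this kind were found.
C4b: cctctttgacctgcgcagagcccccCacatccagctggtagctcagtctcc
C4a: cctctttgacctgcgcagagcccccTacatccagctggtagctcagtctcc

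C4b had the clearest age difference of the 8 genes. It lay at 89.1, 93.4, 175, 86.7 and 112 CPM in 24mEE, at 93.4, 95.5, 101, 156 and 104 CPM in 24mSC, at 39.7, 25.7, 25, 23.1 and 26.9 CPM in 5mEE, and at 25.9, 26.4, 31.9, 30.7 and 41.4 CPM in 5mSC. The lowest 24-month library was above the highest 5-month library by a wide margin, and the housings overlapped at each age. In 24mSC versus 5mSC the log2 difference was 1.81 ± 0.203 (SE, edgeR adjusted p = 0.00026), and in 24mEE versus 5mEE it was 1.98 ± 0.203 (adjusted p = 5.67e-05). Over both housings it was 1.90 ± 0.144 (95% interval 1.60 to 2.20, adjusted p = 2.5e-07), and it passed in every one of the 29, 29 and 28 alternatives run on these comparisons, with log2 differences between 1.65 and 2.15.

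C4a, counted at 17 to 66 reads per library, did not pass. It averaged 1.44 CPM over the 20 libraries and ranged between 1.05 and 1.96 CPM, with a log2 difference over both housings of −0.21 ± 0.142 (edgeR adjusted p = 0.528). The ratio of C4b to C4a was 60.3 to 111 in 24mEE and 68.0 to 138 in 24mSC, against 15.1 to 34.6 in 5mEE and 15.7 to 24.0 in 5mSC. How the counting treated reads that match both copies is not given in the sources used here, so the level of each copy is uncertain by that share.

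C3, the protein on which all complement pathways meet, was rare and very uneven among the libraries of 24mEE, 24mSC and 5mEE. The gene (ENSMUSG00000024164) lies on the minus strand of chromosome 17, 57203970 to 57228136. It lay at 2.36, 2.45, 7.34, 1.64 and 6.18 CPM in 24mEE, at 1.63, 2.07, 4.599, 11.1 and 8.63 CPM in 24mSC, at 1.26, 1.53, 0.970, 0.384 and 2.43 CPM in 5mEE, and at 1.30, 0.731, 1.21, 1.27 and 0.814 CPM in 5mSC, from 9 to 206 reads per library. The 24mSC and 5mSC libraries did not overlap, although 2 of the 24mSC libraries were close to the young range, and 24mEE overlapped 5mEE through 1 young library at 2.43 CPM.

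The log2 difference of C3 in 24mSC versus 5mSC was 2.39 ± 0.541 (SE, edgeR adjusted p = 0.0421). It passed in 17 of 29 alternatives (adjusted p between 0.000944 and 0.171), and did not without 24mSC replicate 3 (0.0865), 24mSC replicate 4 (0.0985), 24mSC replicate 5 (0.0973), 5mSC replicate 1 (0.0546), 5mSC replicate 5 (0.0709), 5mEE replicates 1, 2 or 3 (0.0523, 0.0563 and 0.0526) or 24mEE replicate 5 (0.0511). It was also lost in the fit of only these groups (0.171), without 5mSC replicates 1 and 3 (0.0516) and by limma-voom (0.139). In 24mEE versus 5mEE the difference was 1.58 ± 0.517 (adjusted p = 0.616). Over both housings it was 1.98 ± 0.374 (95% interval 1.20 to 2.76, adjusted p = 0.00938) and passed in all 28 alternatives.

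C4b and C3 were high in the same old libraries. 24mSC replicate 4 had the highest C3 of all and the second highest C4b, and 24mEE replicate 3 the highest C4b and, within 24mEE, the highest C3. After the group means were subtracted their log2 CPM had a Pearson r of 0.623 over the 18 libraries, against 0.101 for C1qa and C3. The gene most like C4b was Ggta1 (r = 0.848), a galactosyltransferase, and the gene most like C3 was Lrrc23 (r = 0.898).

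Markers of activated microglia were higher in the old libraries than in the young, but not every old library high in C3 and C4b was high in them. Of the 14 genes of that list 11 were tested, and the mean log2 CPM of the list was 2.21 to 2.63 in 24mEE and 2.29 to 2.99 in 24mSC, against 1.66 to 2.11 in 5mEE and 1.69 to 2.12 in 5mSC. The library 24mSC replicate 4, highest in C3, was also the highest of this list at 2.99, whereas 24mEE replicate 5, second in its group for both C3 and C4b, was the lowest of the 10 old libraries at 2.21, and 24mSC replicate 5, with the second highest C3 of all, stood at 2.41. As deviations from the group over the 18 libraries, C4b and C3 had r of 0.16 and −0.19 with the homeostatic list mean. With the mean of the activated list their r were 0.53 and 0.54. The summed level of the list was 276 to 325 CPM in 24mEE, 281 to 354 in 24mSC, 252 to 295 in 5mEE and 192 to 305 in 5mSC. Over both housings 4 of 11 were higher and 0 lower, Clec7a (log2 1.89), a receptor of activated microglia, Lyz2 (0.93), Ctss (0.53) and Cd68 (0.43), which encode lysosomal or secreted proteins of phagocytes, with a list median of 0.43 against −0.006 over all genes tested. Without 5mSC replicates 1 and 3, 13 of the list were tested, 7 of them were higher and 0 lower, and the median was 0.48. Of the 8 astrocyte markers, whose median was 0.09, Gfap passed (0.60 ± 0.116, edgeR adjusted p = 0.0112). The part of the activated microglia and the astrocytes in the C4b and C3 differences was not tested. The homeostatic microglia covariate holds no gene of these lists, so its fit cannot show their part. In that fit the log2 difference over both housings was 1.84 for C4b and 2.13 for C3 (edgeR adjusted p = 2.09e-06 and 0.00981).

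**Figure D2:**
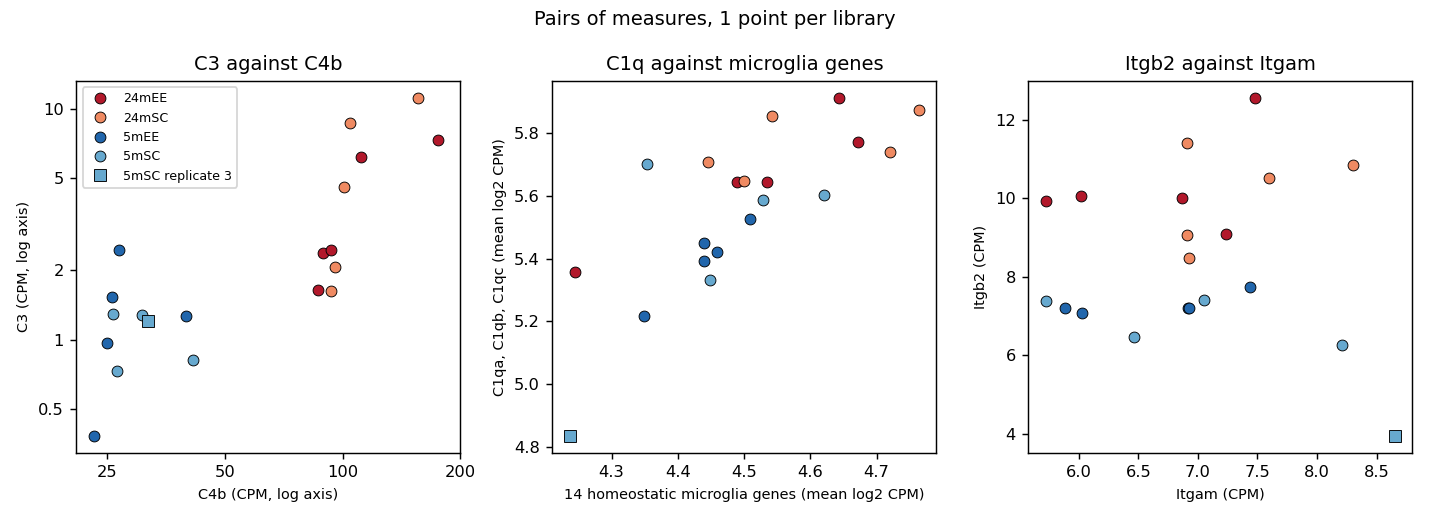
Pairs of measures in the 20 libraries, 1 point each, coloured by group, with 5mSC replicate 3 as a square. Left, C3 against C4b in CPM on log axes; middle, the mean log2 CPM of C1qa, C1qb and C1qc against that of 14 homeostatic microglia genes; right, Itgb2 against Itgam in CPM. Old and young libraries separate along C4b and Itgb2, whereas the Itgam range of 24 months (5.72 to 8.30 CPM) lies within that of 5 months (5.73 to 8.66 CPM) but for its lowest library.

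Itgb2 and Itgam encode the beta and alpha chains of complement receptor 3, and the beta chain passed the age test while the alpha chain did not. Itgb2 (ENSMUSG00000000290, plus strand of chromosome 10, 77530252 to 77565708) lay at 9.09, 10.1, 12.55, 10.01 and 9.93 CPM in 24mEE, at 10.5, 8.47, 10.8, 11.4 and 9.06 CPM in 24mSC, at 7.73, 7.06, 7.21, 7.20 and 7.21 CPM in 5mEE, and at 6.26, 6.46, 3.94, 7.41 and 7.39 CPM in 5mSC. Old and young libraries did not overlap in either housing. The log2 difference was 0.65 ± 0.130 in 24mSC versus 5mSC (SE, edgeR adjusted p = 0.0239), 0.50 ± 0.128 in 24mEE versus 5mEE (adjusted p = 0.264) and 0.57 ± 0.0913 over both housings (95% interval 0.38 to 0.76, adjusted p = 0.0021).

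The Itgb2 call over both housings held in all 28 alternatives, and the housings taken singly were less firm. In 24mSC versus 5mSC it passed in 23 of 29 alternatives (adjusted p between 0.000506 and 0.251), and did not without 24mSC replicate 1 (0.0689), 24mSC replicate 3 (0.0836) or 24mSC replicate 4 (0.0648) nor with the microglia covariate (log2 0.56, adjusted p = 0.054), no filter on low counts (0.0557) or only these groups in the fit (0.251). In 24mEE versus 5mEE it passed in 5 of 29, among them the fits without 5mSC replicate 3 (0.50, adjusted p = 0.0206) and without 5mSC replicates 1 and 3 (0.50, adjusted p = 0.0172). The lowest library, 5mSC replicate 3 at 3.94 CPM, was also the lowest of the 20 in homeostatic microglia markers, and without it 5mSC averaged 6.88 ± 0.604 CPM (SD, n = 4).

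Itgam (ENSMUSG00000030786, plus strand of chromosome 7, 128062640 to 128118491) averaged 6.67 ± 0.764 CPM in 24mEE, 7.33 ± 0.620 in 24mSC, 6.64 ± 0.660 in 5mEE and 7.22 ± 1.21 in 5mSC (SD, n = 5 each). The groups overlapped throughout, and the log2 difference over both housings was 0.02 ± 0.0837, with a 95% interval of −0.16 to 0.19 (edgeR adjusted p = 0.947) that leaves out the Itgb2 estimate of 0.57. Its sign turned in 6 of the 28 alternatives. Itgb2 stood at 1.47 ± 0.198 CPM per CPM of Itgam at 24 months and at 1.01 ± 0.241 at 5 months (SD, n = 10 each). At 5 months the lowest ratios were 0.456 in 5mSC replicate 3 and 0.763 in 5mSC replicate 1, and without both the mean was 1.11 ± 0.106 (n = 8). Of the exon bases of Itgam, 68.7% overlap the gene model Gm49368 on the same strand, which held at most 2 reads in any library, against 79 to 253 reads for Itgam. Reads in the shared part may be missing from either count, so the level of Itgam is uncertain.

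Neutrophils and monocytes also carry this receptor. Of the 10 markers of these cells 3 passed the filter, and the summed level of the list was 1.55 to 5.13 CPM in 24mEE, 0.930 to 4.28 in 24mSC, 0.4997 to 1.41 in 5mEE and 0.792 to 36.8 in 5mSC, the highest being 5mSC replicate 3, in which Itgb2 was the lowest of all 20 libraries (3.94 CPM) and Itgam the highest (8.66 CPM). Of the 3, 0 passed in an age comparison, S100a9, a neutrophil calcium-binding protein, passed over both housings without 5mSC replicates 1 and 3, and none of the 8 T and B cell markers passed the filter. The gene whose pattern was most like that of Itgb2 was Ctsd (r = 0.842), a lysosomal protease, and for Itgam it was Abcb8 (r = 0.911), a mitochondrial transporter.

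Serping1, the inhibitor of the C1 proteases, passed in no comparison. The gene (ENSMUSG00000023224) lies on the minus strand of chromosome 2, 84765387 to 84775444. It lay at 5.87, 4.21, 6.84, 4.39 and 6.59 CPM in 24mEE, at 6.47, 3.93, 4.76, 5.62 and 4.36 CPM in 24mSC, at 6.67, 3.69, 3.84, 3.92 and 5.69 CPM in 5mEE, and at 6.37, 5.18, 11.1, 9.43 and 7.29 CPM in 5mSC. The 5mSC group held the 3 highest libraries and overlapped each of the other groups.

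The log2 difference of Serping1 was −0.63 ± 0.217 in 24mSC versus 5mSC (SE, edgeR adjusted p = 0.121), 0.22 ± 0.215 in 24mEE versus 5mEE (adjusted p = 0.9997) and −0.70 ± 0.215 in 5mEE versus 5mSC (adjusted p = 0.223). The interaction of age and environment was 0.85 ± 0.305 (unadjusted p = 0.0109, adjusted p = 0.621), the largest in size among the 8 genes. The call in 24mSC versus 5mSC was gained without 5mSC replicate 2 (−0.75, adjusted p = 0.0435). Without 5mSC replicates 1 and 3 it was −0.57 (adjusted p = 0.167), with −0.62 (adjusted p = 0.655) in 5mEE versus 5mSC and 0.78 (adjusted p = 0.465) for the interaction. Fibroblast and meningeal markers, 8 of 8 tested, were highest in part of the libraries high in Serping1. On the log2 CPM scale the list averaged 3.77 in 5mSC replicate 3 and 3.41 in 5mSC replicate 4, the highest of all 20, but 2.57 in 5mSC replicate 5, which lay within the ranges of 24mSC (2.08 to 2.75) and 5mEE (2.38 to 2.65). The summed level of the list was 53.6 to 72.2 CPM in 24mEE, 55.8 to 120 in 24mSC, 65.6 to 87.0 in 5mEE and 69.4 to 180 in 5mSC, with 5mSC replicate 3 the highest. Of the 8, Col3a1 alone passed over both housings (log2 −1.09), and the list median was −0.68 in 24mSC versus 5mSC and −0.59 in 5mEE versus 5mSC. Without 5mSC replicates 1 and 3 those medians were −0.40 and −0.45, Col3a1 again passed over both housings, and Slc13a4 was lower in 24mSC versus 5mSC. Their part in the Serping1 values was not tested. The gene most like Serping1 was Cd74 (r = 0.874), the invariant chain of class II antigen presentation.

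Levels of different genes were compared per kilobase of exon, taken as the union of a gene's annotated exons, so the order of genes depends on that length. Reads in shared stretches may be missing, which leaves the levels of Itgam (68.7% of exon bases overlapped by Gm49368) and C4b (34.6% of words shared with C4a) uncertain. At 24 months C1qa and C1qb stood at 51.1 ± 5.92 and 50.3 ± 6.14 CPM per kb, C1qc at 26.1 ± 2.33 and C4b at 19.4 ± 5.32, while at 5 months they stood at 39.9 ± 7.37, 42.0 ± 5.20, 21.5 ± 3.41 and 5.21 ± 1.11 (SD, n = 10 each). C1qa and C1qb did not differ beyond their spread at either age, and C1qc and C4b, which were far apart at 5 months, overlapped at 24 months. At 24 months Itgb2 was at 3.34 ± 0.395 CPM per kb, Serping1 at 2.28 ± 0.474, Itgam at 1.39 ± 0.148 and C3 at 0.934 ± 0.655. At 5 months Itgb2 was at 2.22 ± 0.357, Serping1 at 2.72 ± 1.05, Itgam at 1.38 ± 0.193 and C3 at 0.231 ± 0.107. Itgb2 and Serping1 overlapped at both ages, Serping1 and Itgam at 5 months only, where they no longer did without 5mSC replicates 1 and 3, and Itgam and C3 at 24 months only.

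**Figure D3:**
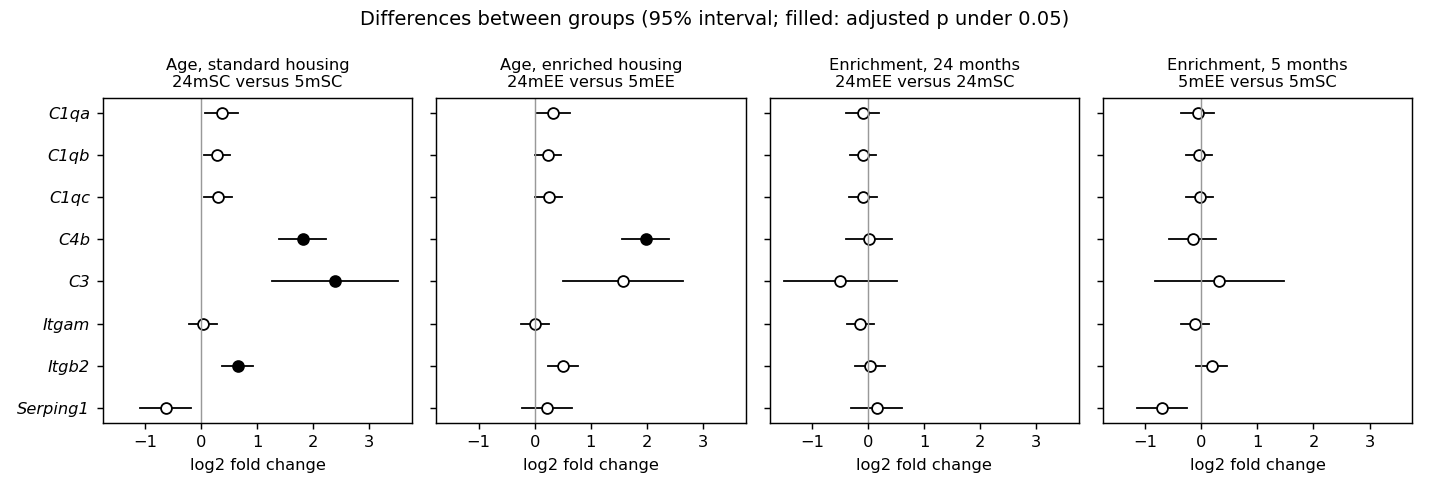
Log2 fold change of the 8 complement genes (rows) in 4 comparisons, 24mSC versus 5mSC, 24mEE versus 5mEE, 24mEE versus 24mSC and 5mEE versus 5mSC (panels, from edgeR), with 95% intervals and filled points where the adjusted p is under 0.05. C4b, C3 and Itgb2 are filled in 24mSC versus 5mSC, C4b alone in 24mEE versus 5mEE, and none for the environment.

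Counted together, 3 of the 8 members were higher and 0 lower in 24mSC versus 5mSC, where 0.803% of all genes tested passed, with a median log2 difference of 0.33 for the members and −0.01 for all genes. In 24mEE versus 5mEE 1 of 8 was higher, where 0.108% of all genes passed, with medians of 0.29 and −0.002. Over both housings 3 of 8 were higher, where 1.19% of all genes passed, with medians of 0.31 and −0.006. The members were chosen with earlier results of these data known, so these counts and medians describe the 8 genes and are not a test of the set. The comparisons in each housing contrast separate libraries, but both enter the comparison over both housings. All 20 libraries also enter 1 fit with a shared estimate of the spread, so the p-values of the housings are not independent. The age difference was not shown to differ between housings for any member.

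For the environment, 0 of 8 members passed in 24mEE versus 24mSC and in 5mEE versus 5mSC, and 0% of all genes passed in either. At an unadjusted p under 0.05, 0 members and 1037 genes stood in the comparison at 24 months, and 1 member, Serping1, and 2759 genes at 5 months. Over both ages enriched versus standard gave 0 of 8, where 0% of all genes passed and 2140 had an unadjusted p under 0.05. The interaction gave 0 of 8, with 0% of all genes passing and 1336 at an unadjusted p under 0.05. DESeq2, whose Wald test called 31 genes at 24 months and 30 at 5 months, called 0 of the members in both, and of its 58 calls over both ages and 6 for the interaction none was a member. The other alternatives called 0 members as well, among them the fit of only 24mEE and 24mSC, which called 187 genes, and limma-voom, which called 379.

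The markers of hippocampal identity averaged 6.74 to 7.18 in 24mEE and 6.47 to 6.73 in 24mSC on the log2 CPM scale, and those of neocortex 3.87 to 4.61 in 24mEE and 4.21 to 4.72 in 24mSC. The ranges of the hippocampal list did not overlap between the housings, and the part of these markers in the member values was not tested.

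The intervals for the environment at 24 months bound the size of a difference. The log2 difference, 24mEE versus 24mSC, of C4b was 0.02 with a 95% interval of −0.39 to 0.42, and its mean CPM ratio was 1.01. For C1qa it was −0.09 (−0.39 to 0.20), for C1qb −0.09 (−0.32 to 0.15) and for C1qc −0.08 (−0.33 to 0.16). Itgb2 stood at 0.04 (−0.23 to 0.30), Itgam at −0.14 (−0.38 to 0.11) and Serping1 at 0.15 (−0.30 to 0.60). For C3, at −0.49 (−1.51 to 0.52), the interval was too wide to exclude a change by a factor of more than 2 in the lower direction. At 5 months, 5mEE versus 5mSC, C4b stood at −0.16 (−0.57 to 0.26) and C1qa at −0.07 (−0.36 to 0.22).

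Of 52 further complement genes 36 passed the filter on low counts, and their median log2 difference over both housings was 0.01 against −0.006 for all genes tested, with 1 higher and 1 lower, where 1.19% of all genes passed. The same 1 and 1 passed in 24mSC versus 5mSC, and 0 of 36 passed in 24mEE versus 5mEE or in the environment comparisons. The gene that rose was Itgax, the alpha chain of complement receptor 4, which pairs with Itgb2 and lies beside Itgam on chromosome 7. The gene that fell was Cfp, properdin, which stabilizes the alternative pathway convertase.

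Itgax lay at 0.369, 0.516, 1.405, 0.443 and 0.778 CPM in 24mEE, at 1.02, 1.29, 0.855, 1.89 and 0.767 CPM in 24mSC, at 0.235, 0.180, 0.169, 0.171 and 0.285 CPM in 5mEE, and at 0.180, 0.244, 0.657, 0.267 and 0.344 CPM in 5mSC, from 4 to 35 reads per library. The ages did not overlap in either housing but did across housings, through 5mSC replicate 3, and the levels are low. Itgax shares 8.02% of its 50-base words with Itgad. The log2 difference over both housings was 1.796 ± 0.279 (SE, edgeR adjusted p = 0.00171), and it passed in all 27 alternatives in which the gene was tested. In 24mSC versus 5mSC it was 1.90 (adjusted p = 0.0239) and passed in 22 of 28, failing with only these groups in the fit (0.171), without 5mSC replicate 5 (0.0511) or without 24mSC replicate 1, 2, 3 or 4 (0.056, 0.0621, 0.0505 and 0.0756).

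Cfp lay at 8.79, 9.46, 9.88, 9.92 and 9.38 CPM in 24mEE, at 8.92, 8.01, 9.04, 8.64 and 10.3 CPM in 24mSC, at 10.3, 13.8, 10.4, 11.1 and 11.1 CPM in 5mEE, and at 15.1, 11.6, 29.8, 12.3 and 15.4 CPM in 5mSC. Every 24-month library was below every 5-month library, narrowly between 24mSC replicate 5 and 5mEE replicate 1, and 5mSC replicate 3 was far above the rest. The log2 difference over both housings was −0.57 ± 0.127 (SE, edgeR adjusted p = 0.031) and −0.40 (adjusted p = 0.00283) without 5mSC replicates 1 and 3. It passed in 19 of 28 alternatives, not with the microglia covariate (−0.45, adjusted p = 0.112) nor without 5mEE replicate 2, 24mEE replicate 2, 3 or 5, or 24mSC replicate 1, 2, 3 or 4 (0.0505 to 0.0612). In 24mSC versus 5mSC it was −0.88 (adjusted p = 0.0239), and −0.56 (adjusted p = 0.0129) without 5mSC replicates 1 and 3. There it was lost with only these groups in the fit (−0.90, adjusted p = 0.236), with the microglia covariate (−0.72, adjusted p = 0.0726) and without 24mSC replicate 1, 2, 3 or 4 (0.0592 to 0.0723).

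The inhibitors and receptors with the highest levels did not pass the age test. Clu, or clusterin, a secreted chaperone that also holds back the terminal complex, averaged 869 CPM over the 20 libraries and had a log2 difference over both housings of 0.01 ± 0.0899 (SE). Sez6l and Sez6l2, neuronal membrane proteins with complement control domains, averaged 340 and 335 CPM and both stood at 0.08. Of 16 inhibitors tested 0 passed, and 1 did without 5mSC replicates 1 and 3, Cd46, a membrane cofactor protein. Many more of all genes passed in that fit too, so this single call does not set the inhibitors apart. Part of the exon bases of Cd46 overlap other genes on the opposite strand. The kit does not mark strand, so the level of Cd46 is uncertain. Among the receptors, Lrp1, a large endocytic receptor, averaged 519 CPM and stood at 0.17 ± 0.0834 (edgeR adjusted p = 0.357), Megf10, a phagocytic receptor of astrocytes, averaged 38.0 CPM and stood at 0.15, and Cr1l, which encodes the rodent inhibitor Crry, averaged 11.3 CPM and stood at −0.12. C3ar1, the receptor of the C3a fragment, was at 1.98 to 4.21 CPM and stood at 0.39 ± 0.118 (adjusted p = 0.107).

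None of the initiators, early proteases and terminal components tested passed the age test. Of 13 initiators and proteases 7 were tested, with Masp1 of the lectin pathway at 5.77 CPM on average and a log2 difference of 0.02 and the C1 protease C1ra at 0.900 CPM and 0.66 ± 0.264 (edgeR adjusted p = 0.245). C1ra shares 48.0% of its 50-base words with C1rb, so its level is uncertain. Mbl1, a mannose-binding lectin, had 0 reads in all 20 libraries, where the limit of 3 reads stands at 0.0882 to 0.329 CPM. Of the 7 terminal components that form the membrane pore or bind it, 2 were tested, C8g at 2.22 CPM and 0.01 and C7 at 0.460 CPM and 0.60 ± 0.306 (adjusted p = 0.366). Cfb, which supplies the protease of the alternative pathway, averaged 0.319 CPM and stood at 0.62 ± 0.227 (adjusted p = 0.202). Of its exon bases, 79.5% overlap the gene model Gm20547 on the same strand, which held 0 reads in all 20 libraries, so the level of Cfb is uncertain.

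**Figure D4:**
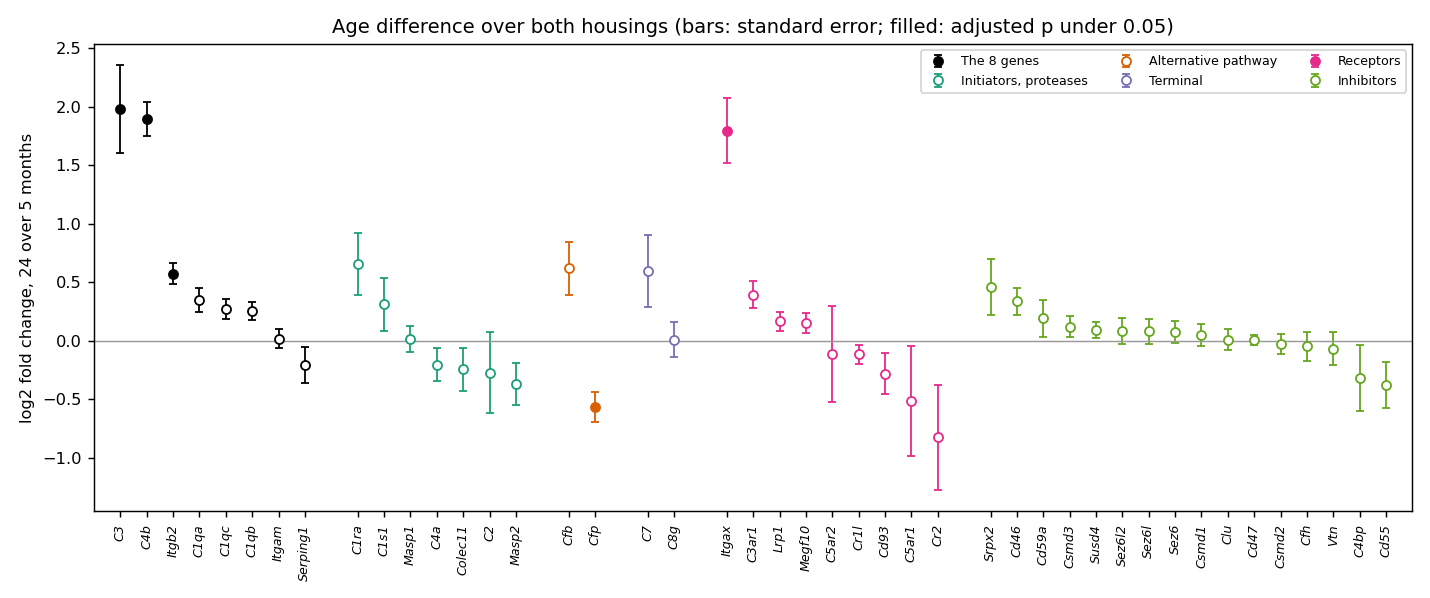
Log2 fold change of 24 over 5 months, both housings together, for the 8 members and the 36 further complement genes tested (horizontal axis, grouped and coloured by role), with standard errors from edgeR and filled points where the adjusted p is under 0.05. C3 (1.98), C4b (1.90), Itgax (1.796) and Itgb2 (0.57) are filled above 0, and Cfp (−0.57) is filled below it.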

How the data were processed

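RNA was sequenced from the hippocampus of male mice in 20 libraries, 5 in each of 4 groups (TruSeq RNA v2, a kit that does not mark strand, single-end reads of 50 nt). The authors deposited raw counts per Ensembl gene. The tools that the submitters' processing notes list are featureCounts 1.4.6-p4, STAR 2.4.1d and bcl2fastq 1.8.2, with the build GRCm38, whereas the study's methods name another aligner and counter. The deposited RPKM table was not used. The mice were kept in more than 1 run and the study's own model held the sequencing run as a term. Runs are not in the labels, so their part was not tested.

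The 8 members and all gene lists were chosen with earlier results of these data known. Genes past edgeR's filterByExpr (16692, least count 10, least total 15) were fitted in edgeR 4.0.16 (R 4.3.3) by quasi-likelihood with TMM scaling, with 1 mean per group over all 20 libraries (16 residual degrees of freedom), and p-values were adjusted over all genes. The SE of a log2 fold change is its size over the root of F. The biological coefficient of variation was 17.4%, and 9.88% without 5mSC replicates 1 and 3. Log2 CPM use a prior count of 2. Alternatives were DESeq2 1.42.0 (its size factors, and its Wald test), limma 3.58.1 voom with quality weights, no filter beyond 1 count, a CPM of at least 1 in 5 libraries, only the groups compared, covariates of microglia or choroid plexus markers, the fit without 5mSC replicates 1 and 3, and each library left out. The edgeR fit was tested on simulated data. The floor of 3 counts lies at 0.0882 to 0.329 CPM, for counting error only. Libraries within a group differed by more than counting noise (chi-square per gene at least 4.78).

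All members are described. Of the other complement genes, those passing an age or environment comparison and up to 3 per role with the highest level are named. The gene with the best Pearson r is named for each pattern, and the best 5 for C1q. C3ar1, Mbl1 and the single markers of other cells were picked once their values had been seen. Of 47729 identifiers, 98.9% are in GENCODE M21, which gave names and coordinates. Promoters are from RefSeq, matched for 4 of 8 members, and each motif was searched on both strands.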

Additional observations from a re-analysis of the deposited data

Results flagged for a closer look

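In 5 of the 32 sets of 5 libraries (8 genes in 4 groups) a library lay far from the other 4, by Dixon's gap at the 95% level (0.71), where chance gives about 1 in 20. C4b stood at 175 CPM in 24mEE replicate 3 against 86.7 to 112 in the other 24mEE libraries, at 156 CPM in 24mSC replicate 4 against 93.4 to 104, and at 39.7 CPM in 5mEE replicate 1 against 23.1 to 26.9. Itgb2 stood at 12.55 CPM in 24mEE replicate 3 against 9.09 to 10.1, and at 7.73 CPM in 5mEE replicate 1 against 7.06 to 7.21. The same libraries, 24mEE replicate 3 and 5mEE replicate 1, were the highest of their group for both genes. No difference between housings in the age effect passed the test for any member.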

How the results depend on the processing

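Of 1600 values of the 8 members under alternatives, 1568 kept their direction where called and their side of the threshold, 18 lost a call, 14 gained one and 0 called values turned sign. The count of members passing in 24mSC versus 5mSC, 3, was 1 (C4b) when only these groups were fitted, and 1 to 4 with each library left out, the lowest without 24mSC replicate 3 or 4. In 24mEE versus 5mEE, 1, it was 2 by DESeq2, in the fit of only these groups, without 5mSC replicates 1 and 3 and by limma-voom, and 1 to 2 with each library left out. Over both housings, 3, it was 4 by the DESeq2 Wald test with C1qa added, 5 without 5mSC replicates 1 and 3, 6 by limma-voom with C1qa, C1qb and C1qc added, and 3 to 5 with each library left out. The causes were not tested. It was 0 throughout for the environment and the interaction. Counts over all genes moved more. In 24mSC versus 5mSC 134 became 759 by DESeq2, 363 without 5mSC replicates 1 and 3, 306 by limma-voom, 223 with the choroid plexus covariate, 59 with no filter, 3 with only these groups, and 30 (without 24mSC replicate 3) to 1127 (without 5mSC replicate 2) with 1 library left out. In 24mEE versus 5mEE 18 became 39, 97, 162, 33, 9 and 52 in the same order of settings, and 3 to 45. Over both housings 198 became 532 by DESeq2, 991 by limma-voom, 113 with no filter, and 102 to 899 (without 5mSC replicate 3) with 1 library left out. Without 5mSC replicates 1 and 3 it lay between 899 and 991. The members gained over both housings in that fit and by limma-voom therefore came with many more calls over all genes. In 24mEE versus 24mSC 0 became 31 by DESeq2, 10 without 5mSC replicates 1 and 3, 379 by limma-voom and 187 with only these groups. Without the filter the median log2 difference of all genes was −0.13 in 24mSC versus 5mSC and 0.17 for the interaction. No paired analysis was possible because the labels carry no replicate numbers that groups share. C3, at 9 to 206 reads, had an SD of 74.0% of its mean CPM in 24mSC, 64.5% in 24mEE, 57.5% in 5mEE and 25.4% in 5mSC. The part of this spread and of the low counts in its calls was not tested.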
